A study of Mus musculus with 12 samples.

Results

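The unfolded protein response and the integrated stress response were followed in 38 genes of mouse BMDMs, that is, macrophages matured from bone marrow in a dish. The rule lists the genes by name and uses no measured value, though it was set with earlier results of these data known, and each gene matched 1 row of the 48526 in the deposited count table. Of the 38, 37 had at least 10 counts in at least 3 of 12 libraries and were tested, and Chac1 was not. They fall into 7 roles: 9 sensors and transcription factors, 2 subunits of the eIF2alpha phosphatase, 5 stress effectors linked to ATF4, 4 enzymes of amino acid and one-carbon metabolism, 11 chaperones and co-chaperones of the endoplasmic reticulum (ER), 3 protein disulfide isomerases and 4 genes of ER-associated degradation.

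BMDMs from 3 female C57Bl/6J mice were cultured in mCSF until day 7 and then kept for 16 hr under 4 conditions: Untreated, 100 ng/mL Wnt3a, 100 pg/mL IL4, or Wnt3a+IL4 at the same doses. All groups share the strain, the sex and the mCSF, and the labels give no age. Each mouse gave 1 sample to each group, so n is 3 mice throughout, and the number of mice limits every test. The question asked of these genes was how each treatment moved them, and whether IL-4 moved them differently once Wnt3a was present.

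The Wnt3a and Wnt3a+IL4 columns of a mouse were not separate counts. The ratio of the Wnt3a column to the Wnt3a+IL4 column stayed within 1 to 2 in every gene, and 0 of 48526 genes broke this bound in any mouse, as happens when columns are sums over shared libraries. Subtracting Wnt3a+IL4 from Wnt3a gave the difference, and subtracting the difference from Wnt3a+IL4 gave the remainder. Both parts come from cells given Wnt3a. The labels do not say which of them also received IL-4, and this was not settled from the values. The comparisons are IL4 against Untreated, each part against Untreated and against the other, and a Wnt3a contrast that sets the mean of both parts against the mean of Untreated and IL4. The Wnt3a contrast needs no decision on the parts, since either way it holds a group with and a group without IL-4 on each side.

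The 6 libraries and 6 parts held from 13342492 to 17453377 counts each. Macrophage markers were high everywhere, with 8 of 8 tested and summed levels of 43960 to 68030 CPM (counts scaled to a library size corrected by TMM). Markers of B and plasma cells (1 of 7 tested) and of T and NK cells (1 of 6 tested) summed to at most 3.99 and 5.50 CPM, and Mzb1, Cd8a and Ncr1 had no counts. Neutrophil markers (4 of 8 tested) summed to 24.3 to 31.2 CPM in Untreated, 34.3 to 38.1 in IL4, 16.7 to 26.1 in the difference and 14.1 to 17.2 in the remainder. Stromal markers (3 of 6 tested) summed to 7.36 to 19.6 CPM in Untreated, 8.75 to 28.6 in IL4, 4.22 to 9.89 in the difference and 4.73 to 15.2 in the remainder. Dendritic cell markers (2 of 6 tested) summed to 0.965 to 1.5, 1.79 to 1.92, 3.13 to 7.84 and 8.47 to 21.1 CPM in the same order, most of it from Ccr7. The part of these cells in the results was not tested, and in bulk RNA fewer cells of a type and less RNA per cell cannot be told apart. A list of 8 IL-4 response genes summed to 51.9 to 84.6 CPM in Untreated, 266 to 349.7 in IL4, 52.2 to 82.8 in the difference and 228.8 to 306 in the remainder. By edgeR 4 of the 8 rose in IL4 against Untreated, 7 in the remainder and 3 in the difference, where 1 fell. Of 9 Wnt response genes only Rnf43 and Znrf3 were high enough to test. By edgeR and by DESeq2, 0 of both rose in the Wnt3a contrast (0 also at an unadjusted p under 0.05), Rnf43 fell (-0.97 ± 0.24, adjusted p = 6.5e-03) and Znrf3 gave -0.17 (adjusted p = 0.22).

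Secretory proteins are folded in the ER, and when unfolded protein builds up there 3 sensors in its membrane respond. Ern1 encodes IRE1alpha, which splices Xbp1 mRNA into a form that makes an active transcription factor. Atf6 encodes a factor that is cut loose in the Golgi and enters the nucleus, and Eif2ak3 encodes PERK, a kinase that phosphorylates eIF2alpha. Phosphorylated eIF2alpha lowers general translation but favours that of Atf4, and the kinase GCN2 (Eif2ak4) reaches the same point when amino acids are short, which is why this arm is called the integrated stress response. Macrophages are secretory cells and use these pathways in both health and inflammation. Counts per gene do not show Xbp1 splicing, eIF2alpha phosphorylation, ATF6 cleavage or Atf4 translation, so what follows is the amount of each mRNA only.

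ATF6 and XBP1 act through the ER stress response element (ERSE), CCAAT and CCACG separated by any 9 bases. The promoter windows of RefSeq (GRCm38.p6, 250 bases before and 50 after each start) were searched for it on both strands. An exact ERSE stood in 8 of the 34 members that have a window, against 37 of all 27025 genes (0.137%). The related ERSE-II, ATTGG and CCACG separated by 1 base, stood in 2 of the 34 and in 0.0444% of all genes. The members were picked as known genes of these responses, so a higher share of such motifs among them is no finding of these data. The sites upstream of a start are shown because these genes include the chaperones that the results turn on, and to let the spacers between the conserved letters, in capitals, be compared. Each is read from CCAAT to CCACG, or from ATTGG for the last.
Calr, chr8:84847075-84847093, read on the + strand: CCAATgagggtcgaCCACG
Canx, chr11:50325800-50325818, read on the - strand: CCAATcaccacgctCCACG
Creld2, chr15:88819520-88819538, read on the - strand: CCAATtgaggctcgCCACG
Dnajc3, chr14:118937827-118937845, read on the + strand: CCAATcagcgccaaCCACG
Hsp90b1, chr10:86705533-86705551, read on the + strand: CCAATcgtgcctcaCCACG
Hsp90b1, chr10:86705638-86705656, read on the - strand: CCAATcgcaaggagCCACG
Hspa5, chr2:34772025-34772043, read on the + strand: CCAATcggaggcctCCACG
Pdia6, chr12:17266491-17266509, read on the + strand: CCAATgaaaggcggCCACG
Syvn1, chr19:6046532-6046550, read on the + strand: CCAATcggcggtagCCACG
Herpud1 (ERSE-II), chr8:94386377-94386387, read on the + strand: ATTGGgCCACG

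The 9 ERSE sites lay between 212 and 26 bases before the RefSeq start. The Hspa5 site also falls in an exon of the GENCODE M21 annotation, which begins that gene farther upstream, and the other sites fall in none. The ERSE-II of Dnajb11 lay after its start, at bases 8 to 18, and is not printed.

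Motifs of the other arms were searched in the same windows. The C/EBP-ATF response element that ATF4 and CHOP bind was searched as TGATGCAA on both strands, and stood in Chac1, Herpud1, Nupr1 and Vldlr, 4 of 34 members, against 1.03% of all genes. TGACGTGG, an element that XBP1 and ATF6 bind, stood in 0 of 34 members and in 0.714% of all genes. A match describes the letters in a window, and a missing match says nothing of the factor. As for the ERSE, a higher share among picked members is no finding. Herpud1 was the only member with both kinds, and its 250 bases before the start (chr8:94386179-94386428, + strand) are shown with the C/EBP-ATF element, here on the opposite strand, and then the ERSE-II in capitals. For Calr, the most abundant member per length, bases 250 to 51 before the start (chr8:84846982-84847181, - strand) are shown with its ERSE in capitals, which reads in the reverse direction to the gene.
Herpud1: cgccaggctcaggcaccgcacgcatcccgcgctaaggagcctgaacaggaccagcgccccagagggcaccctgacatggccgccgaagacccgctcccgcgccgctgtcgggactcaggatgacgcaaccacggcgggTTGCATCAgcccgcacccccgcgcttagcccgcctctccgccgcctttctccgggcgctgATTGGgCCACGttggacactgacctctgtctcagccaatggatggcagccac
Calr: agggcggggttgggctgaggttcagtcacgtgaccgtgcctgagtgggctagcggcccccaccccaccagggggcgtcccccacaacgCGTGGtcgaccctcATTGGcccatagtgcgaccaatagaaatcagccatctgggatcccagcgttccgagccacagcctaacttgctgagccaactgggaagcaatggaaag

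**Figure D1:**
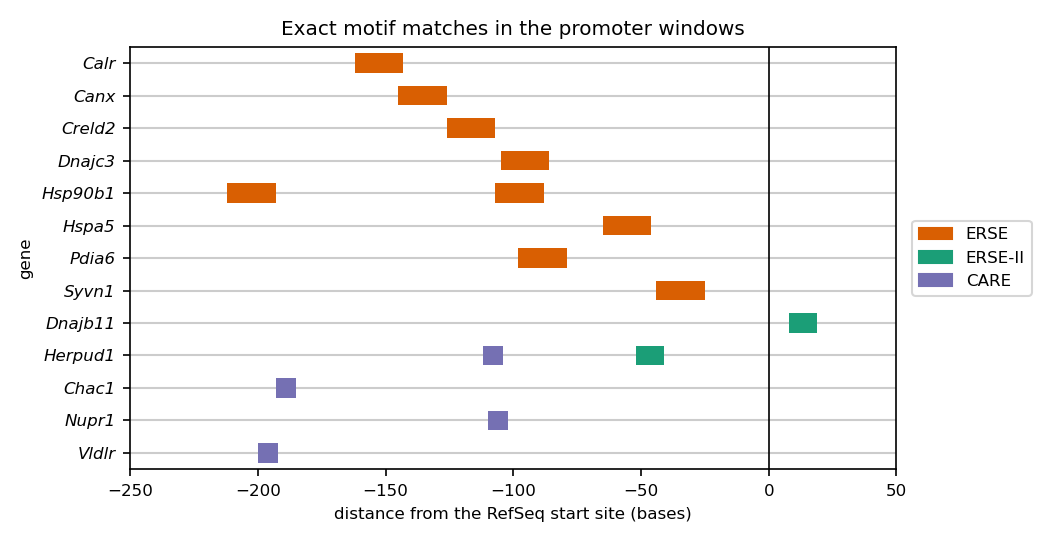
Exact motif matches in the RefSeq promoter windows of the 13 members that hold one, with distance from the start site in bases on the x axis and one line per gene. Orange bars are ERSE, green bars ERSE-II and purple bars the C/EBP-ATF response element (CARE), and the ERSE matches lie between 212 and 26 bases before the start.

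Together the 38 members made up 4760 to 4883 CPM in Untreated, 5884 to 6462 in IL4, 7355 to 7781 in the difference and 7800 to 8211 in the remainder, and the groups did not overlap. ER chaperones carried most of it, from 2496 ± 40.0 CPM (SD, n = 3) in Untreated to 4758 ± 127 in the remainder. In Untreated cells Calr was the most abundant per length of exon (282.8 CPM per kb), followed by Hspa5 (135.1) and Pdia3 (128.8). At the low end stood Phgdh (0.560), Vldlr (0.211) and Chac1 (0.0839 CPM per kb). Replicates of a tested member varied by a median CV of 7.62%, from 2.2% in Ern1 to 31.9% in Phgdh, whose counts are low. In 27 of the 37 tested members the lowest group mean was Untreated, and in 27 both Wnt3a-treated parts had a higher mean than both groups without Wnt3a. The heat map of the members by mouse shows this pattern by role. How often such orders of means occur over all genes was not counted.

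**Figure D2:**
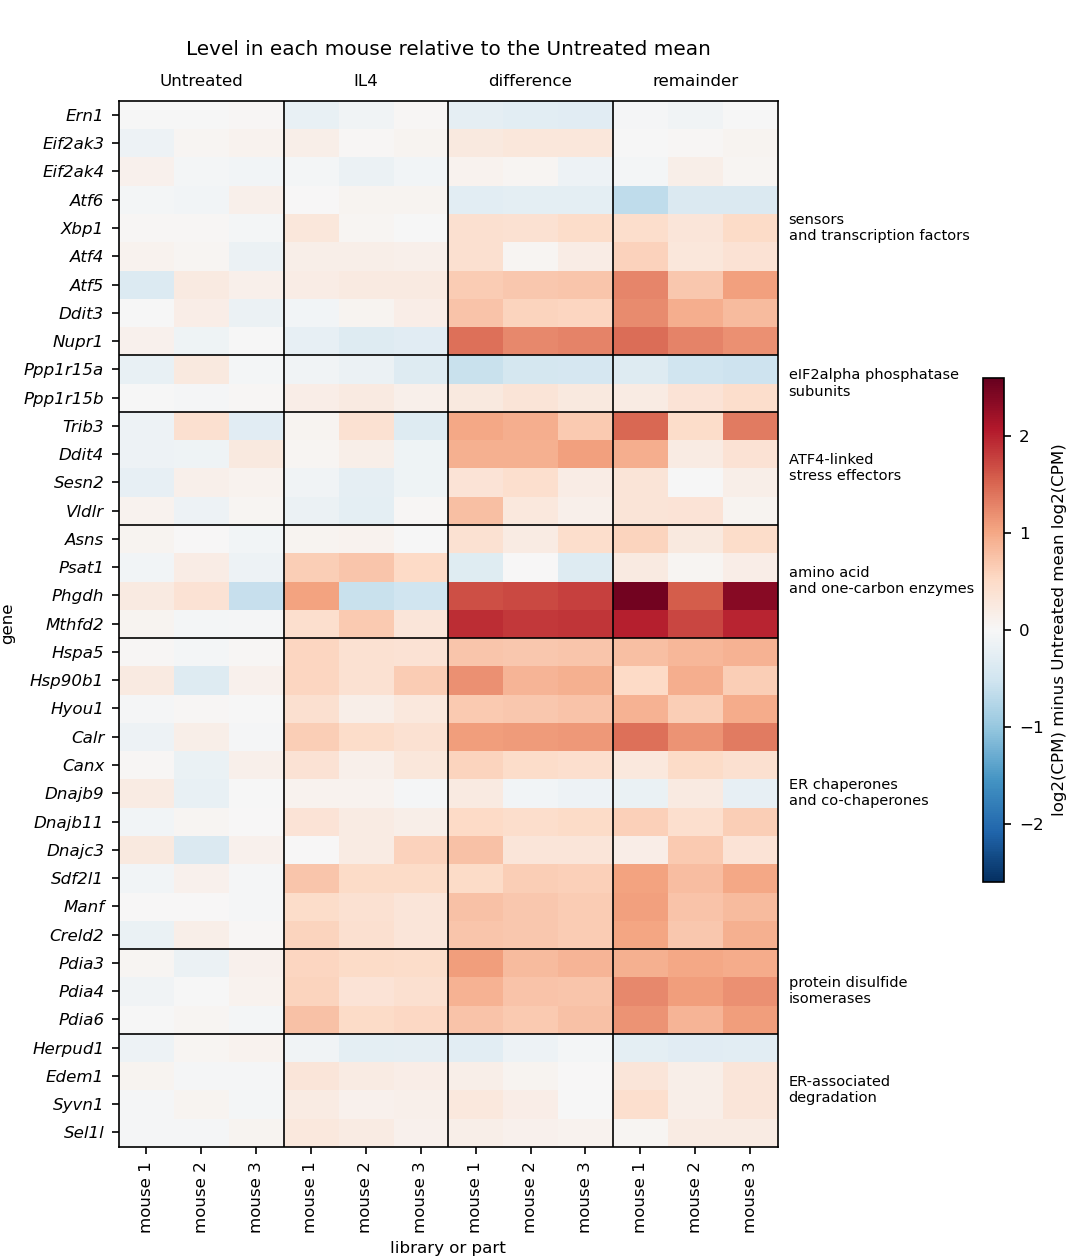
Level of the 37 tested members (rows, by role) in each mouse (columns, by group) as log2(CPM) minus the mean log2(CPM) of the 3 Untreated libraries. Red is higher and blue lower: chaperones, protein disulfide isomerases, Nupr1, Phgdh and Mthfd2 are red in both Wnt3a-treated parts, Atf6 and Ppp1r15a are blue there, and ER-associated degradation stays pale.

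In the Wnt3a contrast, 24 of 37 tested members rose and 3 fell by the edgeR test (adjusted p under 0.05), where 16.5% of all 12421 genes tested rose and 16.1% fell. The median log2 fold change of the members was 0.40, and that of all genes tested was -0.02. The largest rises were in Phgdh (log2 fold change 1.82), Mthfd2 (1.65), Nupr1 (1.46), Trib3 (0.97), Calr (0.96) and Ddit3 (0.79), and the 3 that fell were Ppp1r15a (-0.39), Atf6 (-0.38) and Psat1 (-0.34). In 16 members all 6 Wnt3a-treated values lay above all 6 others, and how often this held over all genes was not counted. Of the 27 calls, 21 held when any 1 mouse or any 1 library was left out, and Asns, Atf4, Ppp1r15b, Psat1, Sesn2 and Trib3 did not.

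Each part gave the same totals against Untreated. In the difference 24 members rose and 3 fell, against 11.8% and 11.4% of all genes, with a median log2 fold change of 0.49 for members and -0.01 for all genes. In the remainder 24 rose and 3 fell, against 13.6% and 11.7%, with medians of 0.45 and -0.02. The highest log2 fold changes in the difference were those of Mthfd2 (1.87), Phgdh (1.65), Nupr1 (1.32), Calr (1.10), Hsp90b1 (0.98) and Ddit4 (0.96). In the remainder they were those of Phgdh (2.14), Mthfd2 (1.92), Nupr1 (1.32), Calr (1.31), Pdia4 (1.17) and Trib3 (1.14). The members that fell were Ppp1r15a, Ern1 and Atf6 in the difference and Atf6, Ppp1r15a and Herpud1 in the remainder. These comparisons share the Untreated libraries, so they are not independent of each other. Leaving out mouse 3 from all groups lowered the counts to 15 in the difference and 17 in the remainder.

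IL-4 alone moved fewer members. In IL4 against Untreated 10 rose and 0 fell, against 2.31% and 1.09% of all genes, with a median log2 fold change of 0.18 for members and 0.00 for all genes. DESeq2 also called 0 lower, and 2 were lower at an unadjusted p under 0.05 in edgeR. The 10 were Psat1 (log2 fold change 0.63), Pdia6 (0.60), Sdf2l1 (0.57), Pdia3 (0.51), Calr (0.50), Mthfd2 (0.48), Hspa5 (0.45), Pdia4 (0.45), Creld2 (0.44) and Manf (0.40), so 8 of them are chaperones or disulfide isomerases of the ER. In each of the 10, all 3 IL4 values lay above all 3 Untreated values. The 10 were called from these same values, so this is no further evidence. With mouse 3 left out, 0 of the 10 were called (adjusted p from 0.13 to 0.38 by edgeR, with 13 members at an unadjusted p under 0.05 in that fit), while their log2 fold changes stayed between 0.42 and 0.61. With mouse 1 left out 4 members were called, and with mouse 2 left out 5.

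**Figure D3:**
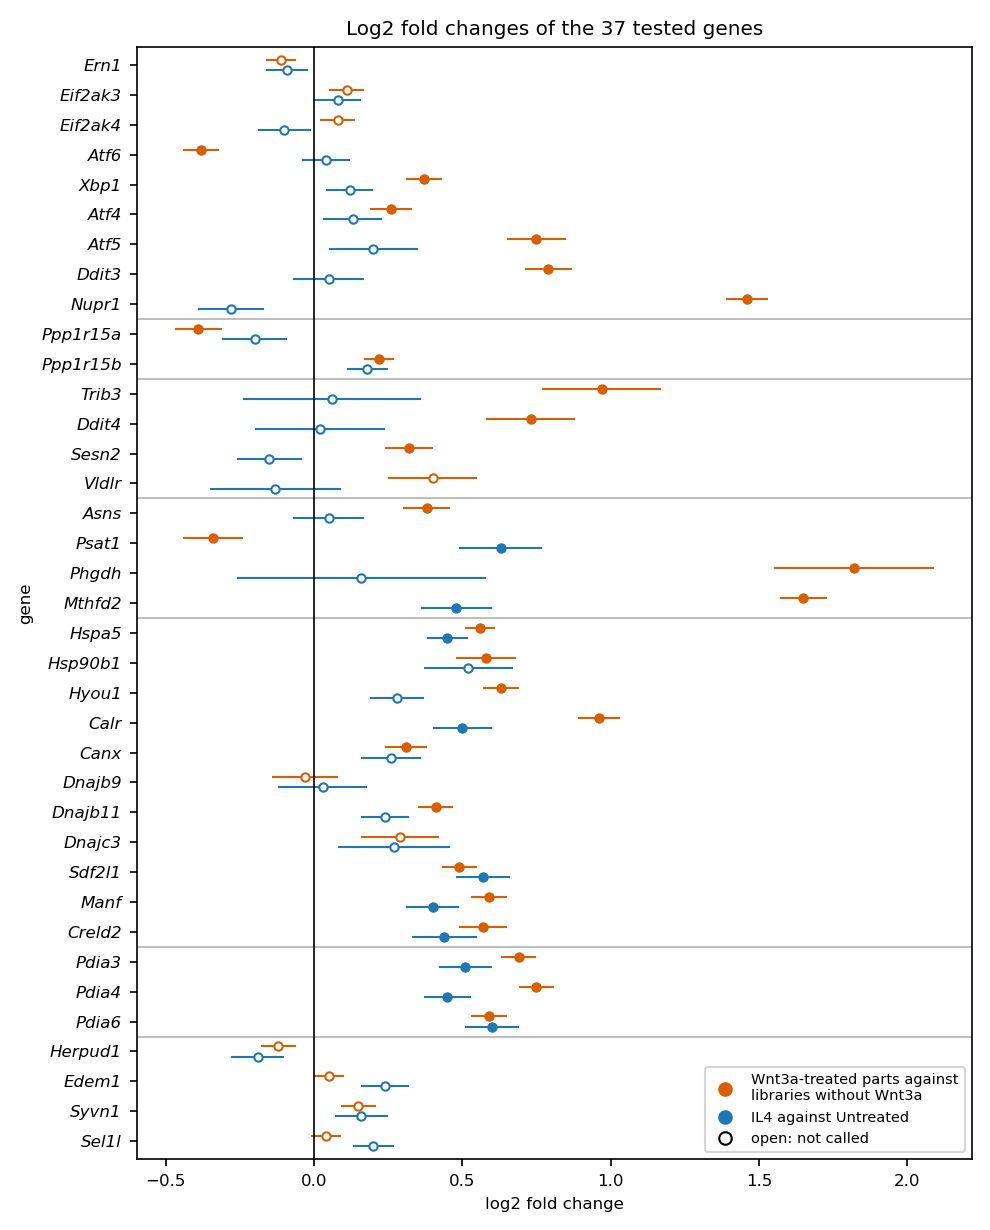
Log2 fold change (points) and its standard error (bars) of the 37 tested members, for the Wnt3a contrast in orange and IL4 against Untreated in blue, with filled points where the adjusted p was under 0.05. Psat1 is called on opposite sides of 0 in the 2 comparisons, at 0.63 with IL-4 and -0.34 in the Wnt3a contrast. The IL4 libraries enter the 2 comparisons on opposite sides, and against Untreated alone Psat1 was called in neither part.

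The genes of the sensors did not share a direction. Atf6 was 144.3, 141.8 and 164.6 CPM in Untreated, 151.0, 156.5 and 156.4 in IL4, 124.8, 126.1 and 126.2 in the difference and 95.2, 115.9 and 115.4 in the remainder. All 6 Wnt3a-treated values lay below all 6 others, and the Wnt3a contrast was -0.38 ± 0.06 (log2, SE; adjusted p = 1.9e-04). Ern1 was lower in the difference (86.8 to 90.1 CPM) than in Untreated (104.7 to 107.9 CPM), by a log2 fold change of -0.26 (adjusted p = 0.013), and the remainder (100.2 to 105.3 CPM) gave -0.04 (adjusted p = 0.70). Eif2ak3 went the other way in the same part, at 40.4 to 41.8 CPM in the difference against 30.7 to 35.9 in Untreated (log2 fold change 0.28, adjusted p = 0.028). Neither Ern1 (-0.11, adjusted p = 0.10) nor Eif2ak3 (0.11, adjusted p = 0.16) passed in the Wnt3a contrast, and the GCN2 gene Eif2ak4 stayed between 35.5 and 43.8 CPM in all libraries. In the difference the call of Ern1 was lost without mouse 2 (adjusted p = 0.091) or mouse 3 (0.18), and that of Eif2ak3 without mouse 1 (0.15), mouse 2 (0.12) or mouse 3 (0.15). The fall of Atf6 in the difference (-0.26, adjusted p = 0.041) was likewise lost without mouse 1 (0.053), mouse 2 (0.093) or mouse 3 (0.36), while its fall in the remainder (-0.47, adjusted p = 9.8e-04) held without any of them. With IL-4 alone the sensors gave -0.09 for Ern1 (adjusted p = 0.65), 0.08 for Eif2ak3 (0.74) and 0.04 for Atf6 (0.89), and Eif2ak3 gave 0.03 in the remainder (0.81). The remainder against the difference was 0.22 for Ern1 (adjusted p = 0.084), -0.25 for Eif2ak3 (0.12) and -0.21 for Atf6 (0.20). Of exon sequence, 8.05% of Eif2ak3 overlaps another gene on the other strand, and whether counting used strand is not given in the sources used here.

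The transcription factor genes Xbp1, Atf4, Atf5, Ddit3 and Nupr1 rose in the Wnt3a contrast. Xbp1 was 207.4 to 218.7 CPM in Untreated and 213.5 to 264.0 in IL4, and 282.8 to 300.4 and 267.7 to 301.7 in the difference and remainder, so that both parts lay above every library without Wnt3a. Its Wnt3a contrast was 0.37 ± 0.06 (adjusted p = 2.6e-04), with 0.43 in the difference (1.9e-03), 0.42 in the remainder (2.0e-03), -0.01 between the parts (0.95) and 0.12 with IL-4 alone (0.58). Atf4, the factor favoured under eIF2alpha phosphorylation, was 136.5, 133.1 and 114.9 CPM in Untreated and 141.3, 141.3 and 139.5 in IL4. It was 171.2, 132.7 and 145.4 CPM in the difference and 192.8, 157.0 and 167.0 in the remainder. The Wnt3a contrast of Atf4 was 0.26 ± 0.07 (adjusted p = 0.014), the groups overlapped, and the call was lost without mouse 1 (adjusted p = 0.055), without mouse 3 (0.15) and when libraries were scaled by total counts (0.075). Against Untreated, Atf4 gave 0.22 in the difference (adjusted p = 0.14), 0.43 in the remainder (7.2e-03) and 0.13 with IL-4 alone (0.63), and the remainder against the difference was 0.20 (0.31).

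Ddit3, which encodes the pro-apoptotic factor CHOP, was 26.4, 29.7 and 23.8 CPM in Untreated and 25.4, 27.8 and 29.7 in IL4. It was 44.6, 39.6 and 39.3 CPM in the difference and 61.8, 51.2 and 46.8 in the remainder, above every library without Wnt3a. The Wnt3a contrast of Ddit3 was 0.79 ± 0.08 (adjusted p = 5.2e-06), a 1.73-fold rise, and IL4 against Untreated was 0.05 (adjusted p = 0.90). Against Untreated Ddit3 gave 0.63 in the difference (adjusted p = 1.5e-03) and 1.00 in the remainder (2.4e-05). In the annotation 10.9% of its exon sequence overlaps other genes, among them Mars, a tRNA synthetase gene. Atf5, a related factor also favoured under eIF2alpha phosphorylation, went from 33.0 to 49.4 CPM in Untreated to 67.0 to 70.1 in the difference and 68.6 to 102.4 in the remainder (Wnt3a contrast 0.75 ± 0.10, adjusted p = 6.0e-05). Nupr1, a small stress-induced chromatin protein with a C/EBP-ATF element in its window, was 19.8, 16.9 and 18.1 CPM in Untreated and 15.8, 14.5 and 14.9 in IL4. It was 49.5, 43.2 and 44.5 CPM in the difference and 50.1, 44.9 and 41.7 in the remainder. That is a 2.75-fold rise in the Wnt3a contrast (1.46 ± 0.07, adjusted p = 2.5e-09), and the remainder against the difference gave -0.01 ± 0.10 (adjusted p = 0.98).

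The 2 regulatory subunits of the eIF2alpha phosphatase changed in opposite directions. Ppp1r15a encodes GADD34, which is itself induced by stress and restores translation, and Ppp1r15b encodes CReP, the constitutive subunit. Ppp1r15a fell, from 47.7, 64.7 and 52.2 CPM in Untreated and 51.2, 49.1 and 43.1 in IL4 to 36.5, 39.7 and 39.9 in the difference and 43.4, 37.8 and 37.7 in the remainder. Each part lay below all Untreated values, while the lowest IL4 value overlapped the highest of the remainder by a small margin, and the Wnt3a contrast was -0.39 ± 0.08 (adjusted p = 1.9e-03). Ppp1r15b was 95.6 to 99.7 CPM in Untreated, 106.1 to 113.3 in IL4, 115.2 to 122.7 in the difference and 112.5 to 132.8 in the remainder (Wnt3a contrast 0.22 ± 0.05, adjusted p = 3.7e-03, lost without mouse 3 at 0.074). For Ppp1r15b, 11.4% of exon sequence overlaps a gene on the other strand.

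Apart from Sesn2, the remaining effectors linked to ATF4 were low in these cells. Trib3, a pseudokinase that restrains ATF4 and CHOP, was 1.83, 2.64 and 1.63 CPM in Untreated and 2.10, 2.62 and 1.59 in IL4. It was 4.01, 3.85 and 3.20 CPM in the difference and 5.59, 2.77 and 5.06 in the remainder, so both parts lay above all other libraries (Wnt3a contrast 0.97 ± 0.20, adjusted p = 1.7e-03, and 0.058 without mouse 3). Ddit4, an inhibitor of mTORC1 signaling, was 2.20 to 2.88 CPM in Untreated, 2.24 to 2.68 in IL4, 4.58 to 5.09 in the difference and 2.83 to 4.66 in the remainder (Wnt3a contrast 0.73 ± 0.15, adjusted p = 1.6e-03). Sesn2, another stress-induced brake on mTORC1, was more abundant, at 38.5 to 61.2 CPM, and gave 0.32 ± 0.08 (adjusted p = 6.3e-03, and 0.055 without mouse 1). Vldlr, a lipoprotein receptor that ATF4 induces, gave 0.40 ± 0.15 at 1.79 to 3.66 CPM and was not called (adjusted p = 0.058). Chac1, a glutathione-degrading enzyme and a classical target of ATF4, was at 0 to 0.497 CPM in all libraries and was too low to test.

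Enzymes of serine and one-carbon metabolism included both the largest rise and a fall. Mthfd2, a mitochondrial enzyme of folate metabolism, was 11.4, 10.4 and 10.6 CPM in Untreated and 14.7, 17.2 and 13.5 in IL4. It was 41.0, 38.7 and 39.0 CPM in the difference and 43.7, 35.9 and 42.9 in the remainder. The IL4 values lay above Untreated and those of both parts above IL4, and Mthfd2 rose both in the Wnt3a contrast (1.65 ± 0.08, adjusted p = 2.1e-09) and with IL-4 alone (0.48 ± 0.12, adjusted p = 0.034, and 0.061 with the mouse as a block). Phgdh, the first enzyme of serine synthesis, was 1.56, 1.74 and 0.878 CPM in Untreated, 2.76, 0.895 and 0.938 in IL4, 4.24, 4.40 and 4.58 in the difference and 7.64, 3.99 and 6.90 in the remainder. Its Wnt3a contrast, 1.82 ± 0.27 (adjusted p = 1.0e-04), rests on low counts. Asns, asparagine synthetase, rose from 11.0 to 12.3 CPM in the libraries without Wnt3a to 13.4 to 17.4 in the parts (0.38 ± 0.08, adjusted p = 2.4e-03, and 0.11 without mouse 3).

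Psat1, which acts after Phgdh in serine synthesis, rose with IL-4 instead. It was 5.38, 6.50 and 5.21 CPM in Untreated, 8.87, 9.33 and 8.15 in IL4, 4.58, 5.68 and 4.51 in the difference and 6.65, 5.90 and 6.37 in the remainder. The IL4 values lay above all others, and IL4 against Untreated was 0.63 ± 0.14 (adjusted p = 0.026). The IL-4 call of Psat1 was lost without mouse 1 (adjusted p = 0.18), mouse 2 (0.086) or mouse 3 (0.38), and without any 1 Untreated or IL4 library other than Untreated mouse 2 (0.056 to 0.12). Against Untreated alone neither the difference (-0.21, adjusted p = 0.36) nor the remainder (0.15, adjusted p = 0.50) was called, so its fall in the Wnt3a contrast (-0.34) is measured against a mean that includes the high IL4 group. That fall was lost without mouse 1 (adjusted p = 0.079), mouse 2 (0.12) or mouse 3 (0.14).

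Among the chaperones 9 of 11 rose in the Wnt3a contrast and 0 fell, with a median log2 fold change of 0.56, and 10 of the 11 were higher at an unadjusted p under 0.05. DESeq2 called the same numbers, and of all genes tested 16.5% rose and 16.1% fell by edgeR. Hspa5 encodes BiP, the main Hsp70 of the ER, which also holds the sensors inactive. It was 583.1, 549.0 and 582.5 CPM in Untreated, 839.8, 753.5 and 746.3 in IL4, 948.1, 923.6 and 947.3 in the difference and 983.9, 1037 and 1072 in the remainder. The 4 groups did not overlap. Hspa5 rose 1.36-fold with IL-4 alone (0.45 ± 0.07, adjusted p = 2.8e-03) and by 0.56 ± 0.05 in the Wnt3a contrast (adjusted p = 1.3e-06). Against Untreated Hspa5 gave 0.72 in the difference (adjusted p = 7.5e-06) and 0.85 in the remainder (1.3e-06), and 0.13 between the parts (0.35).

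Calreticulin (Calr), a lectin chaperone for glycoproteins, had the largest log2 fold change of the group. It was 741.2, 906.8 and 795.5 CPM in Untreated, 1270, 1126 and 1071 in IL4, 1728, 1749 and 1763 in the difference and 2186, 1825 and 2064 in the remainder. These 4 groups did not overlap either, and the Wnt3a contrast of Calr was 0.96 ± 0.07 (adjusted p = 1.1e-07). Its membrane-bound relative Canx rose less, by 0.31 ± 0.07 (adjusted p = 2.5e-03), with levels of 334.8 to 412.3 CPM in Untreated and 453.8 to 566.5 in the parts. Hyou1, a large Hsp70 that exchanges the nucleotide of BiP, went from 136.1 to 143.1 CPM in Untreated to 222.8 to 232.0 in the difference and 216.9 to 271.5 in the remainder (Wnt3a contrast 0.63 ± 0.06, adjusted p = 3.3e-06).

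Other proteins of the BiP system rose as well. Manf, a secreted stress protein, gave a Wnt3a contrast of 0.59 ± 0.06 (adjusted p = 3.9e-06), Creld2, an ER protein induced by stress, 0.57 ± 0.08 (4.8e-05), Sdf2l1, a component of the BiP cycle, 0.49 ± 0.06 (3.4e-05), and the co-chaperone Dnajb11 0.41 ± 0.06 (4.9e-05). Hsp90b1, the Hsp90 of the ER, gave 0.58 ± 0.10 (adjusted p = 5.9e-04), with a wide spread (259.0 ± 51.7 CPM, SD, n = 3, in Untreated), and 15.7% of its exon sequence overlaps other genes. With IL-4 alone Hsp90b1 was not called by edgeR (0.52 ± 0.15, adjusted p = 0.076) but was by DESeq2 (adjusted p = 0.018). The co-chaperones that did not pass in the Wnt3a contrast were Dnajb9 (-0.03 ± 0.11, adjusted p = 0.86), a target of XBP1 that represses IRE1alpha, and Dnajc3 (0.29 ± 0.13, adjusted p = 0.11). Dnajb9 stayed between 13.5 and 18.6 CPM, while Dnajc3 was 44.4 to 67.9 CPM in Untreated and 64.5 to 96.4 in the parts, and was called only when all genes with at least 1 count were tested (adjusted p = 3.9e-04) or when IL4 mouse 3 was left out (0.048).

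All 3 protein disulfide isomerases, which form and rearrange disulfide bonds, rose in both the Wnt3a contrast and IL4 against Untreated. Of all genes tested 16.5% rose in the former and 2.31% in the latter. Pdia4 was 73.5, 78.4 and 84.0 CPM in Untreated, 117.1, 100.3 and 104.8 in IL4, 146.4, 131.2 and 130.1 in the difference and 185.5, 165.7 and 178.8 in the remainder, with no overlap between groups. Its Wnt3a contrast was 0.75 ± 0.06 (adjusted p = 2.5e-07) and its IL-4 change 0.45 ± 0.08 (adjusted p = 7.0e-03). Pdia3, the partner of calreticulin and calnexin, rose from 363.8 to 434.1 CPM in Untreated to 564.5 to 592.2 in IL4, 717.8 to 860.2 in the difference and 761.4 to 814.5 in the remainder (Wnt3a contrast 0.69 ± 0.06, adjusted p = 9.4e-07). Pdia6, an isomerase that also binds IRE1alpha, was 171.9 to 183.9 CPM in Untreated, 249.7 to 301.1 in IL4, 285.4 to 299.0 in the difference and 327.4 to 397.2 in the remainder. The IL4 and difference ranges of Pdia6 overlapped, and its Wnt3a contrast was 0.59 ± 0.06 (adjusted p = 5.2e-06).

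**Figure D4:**
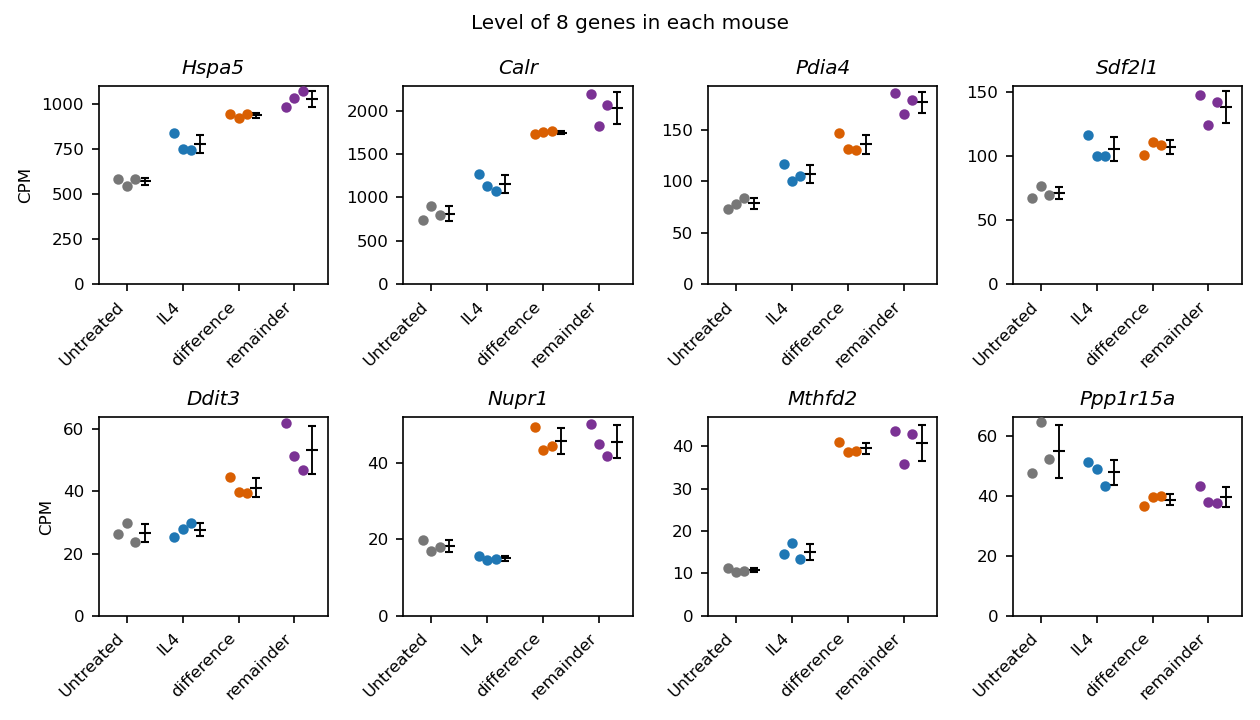
CPM of 8 members in each of 3 mice per group (points, y axis from 0), with the mean and SD beside them. Hspa5, Calr and Pdia4 step up through the 4 groups without overlap, Ddit3, Nupr1 and Mthfd2 separate the Wnt3a-treated parts from Untreated and IL4, and Ppp1r15a is lower in both parts than in Untreated.

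ER-associated degradation sends misfolded protein back to the cytosol. Against Untreated, its 4 genes were called only in the remainder, with 2 higher and 1 lower. In the Wnt3a contrast 0 of 4 were called by edgeR or by DESeq2, 1 was higher at an unadjusted p under 0.05, and the median log2 fold change was 0.05. Of all genes tested 16.5% rose and 16.1% fell there, so 0 of 4 does not set this role apart. Herpud1, a scaffold of the degradation complex that carries both an ERSE-II and a C/EBP-ATF element, was 63.0, 71.6 and 73.3 CPM in Untreated, 65.0, 58.0 and 59.2 in IL4, 57.1, 62.8 and 67.0 in the difference and 58.3, 56.2 and 57.3 in the remainder. It fell in the remainder (-0.27 ± 0.09, adjusted p = 0.029, and 0.31 without mouse 3), and in the Wnt3a contrast it was -0.12 ± 0.06 (adjusted p = 0.15), called lower only when libraries were scaled by total counts (-0.19, adjusted p = 7.6e-03). Edem1, a lectin for misfolded glycoproteins, and the ubiquitin ligase Syvn1 were higher in the remainder (0.26 and 0.31, adjusted p = 0.021 and 0.022), calls lost without mouse 3 (0.28 and 0.21) and, for Syvn1, without mouse 1 (0.15). Sel1l, the partner of Syvn1, stayed between 196.8 and 244.7 CPM.

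Set beside the promoter letters, 6 of the 8 members with an ERSE rose in the Wnt3a contrast and 4 with IL-4, with median log2 fold changes of 0.56 and 0.45. Of the 25 tested members that have a window and no ERSE, 15 rose and 2 fell in the Wnt3a contrast and 5 rose with IL-4, with medians of 0.38 and 0.08. Outside the members 29 genes hold an exact ERSE and 6 of them were tested. Of these 6, 0 rose with IL-4 or in the Wnt3a contrast and Adcy3 fell in the latter, with medians of 0.04 and -0.07. Over all genes tested 16.5% rose and 16.1% fell in the Wnt3a contrast, and 2.31% and 1.09% with IL-4. All of the 8 but Syvn1 are chaperones or disulfide isomerases, so motif and role cannot be told apart here. Pdia3, Pdia4 and Sdf2l1 rose in both comparisons without an ERSE. No test was made of these counts.

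Between the parts, 3 members were higher in the remainder than in the difference and 0 were lower, against 2.87% and 2.38% of all genes, with a median of 0.08. They were Pdia4 (0.38 ± 0.08, adjusted p = 0.017), Sdf2l1 (0.37 ± 0.09, adjusted p = 0.026) and Pdia6 (0.32 ± 0.09, adjusted p = 0.049), and 2 members were lower at an unadjusted p under 0.05, with 0 by DESeq2. Sdf2l1 was 67.4, 76.7 and 70.1 CPM in Untreated, 116.8, 100.3 and 100.4 in IL4, 100.9, 111.3 and 108.8 in the difference and 148.2, 124.7 and 142.6 in the remainder. For Sdf2l1 the IL4 and difference levels overlapped, and the remainder lay above both. With the mouse as a block only Pdia4 was called (adjusted p = 0.024), with Sdf2l1 at 0.053 and Pdia6 at 0.059, and without mouse 3 none was by edgeR, with 4 members at an unadjusted p under 0.05. Ddit3 was higher in the remainder in all 3 mice but was not called (0.37 ± 0.12, adjusted p = 0.090).

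Whether IL-4 acted differently in the presence of Wnt3a was tested under both assignments of the parts, a comparison chosen after seeing the data. If the remainder is Wnt3a+IL4, 0 of 37 members differed by edgeR, against 0.105% of all genes, with a median difference in log2 fold change of -0.14. Of them 1 was higher and 7 were lower at an unadjusted p under 0.05, and DESeq2 called 2 lower, Hsp90b1 (-0.82, adjusted p = 0.019) and Pdia3 (-0.49, adjusted p = 0.022). If the difference is Wnt3a+IL4, 10 members differed, all with a lower log2 fold change for IL-4 in the presence of Wnt3a, against 7.33% of all genes in either direction. Among the sensors and outputs, the value was 0.31 for Ern1, -0.33 for Eif2ak3, -0.25 for Atf6, -0.14 for Xbp1, 0.07 for Atf4, 0.32 for Ddit3 and -0.31 for Hspa5 under the former assignment, none of them called (adjusted p from 0.22 to 0.91). Under the latter it was -0.14, 0.16, 0.17, -0.11, -0.34, -0.42 and -0.58 in the same order, and Hspa5 was called (adjusted p = 2.7e-03). The same test gave 0 of the 8 IL-4 response genes under the former assignment by edgeR (3 at an unadjusted p under 0.05, 1 by DESeq2), with a median of -0.20, and 7 of 8 lower under the latter, with a median of -4.60. Between the parts 5 of these 8 were higher in the remainder, with a median of 1.90. The labels do not say which culture each part came from, and the samples were not assigned from these values.

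Other genes of the same pathways were taken from lists beyond the members. Over all genes tested, 16.5% rose and 16.1% fell in the Wnt3a contrast, and 2.31% and 1.09% with IL-4 alone. These shares apply to each list that follows. Of 34 further genes of ER folding and degradation, 15 rose and 1 fell in the Wnt3a contrast. The rises were led by Pdia5 (0.79) and the abundant isomerase P4hb (0.74), and Derl2 (0.13) was the smallest. The mean of P4hb was 450.8 CPM in Untreated and 911.7 in the remainder, while its contrast of 0.74 also takes in IL4 and the difference. Of 20 tested genes of the translocon and signal peptide machinery, which brings proteins into the ER, 9 rose and 0 fell by edgeR (0 also fell by DESeq2 or at an unadjusted p under 0.05), from Sec61b (0.45) and Ssr2 (0.44) to Spcs2 (0.21) and Srpr (0.21). With IL-4 alone 0 genes of either list passed by edgeR, with 5 and 4 higher at an unadjusted p under 0.05, and DESeq2 called 1 and 0.

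Among 22 tested genes of the ATF4 and amino acid response, 8 rose and 6 fell in the Wnt3a contrast, with a median log2 fold change of 0.02. Slc7a11, the cystine transporter, rose by 2.33 ± 0.20 (adjusted p = 5.6e-07), from means of 7.85 and 7.53 CPM in Untreated and IL4 to 44.6 and 33.5 in the difference and remainder, and Slc6a9, a glycine transporter, rose by 1.18. Gdf15, a secreted stress cytokine, fell by 1.63 on the log2 scale (adjusted p = 1.7e-06) and Ndrg1 by 1.22. With IL-4 alone Atf3 was the one gene of this list called (0.53 ± 0.09, adjusted p = 4.5e-03). Aminoacyl-tRNA synthetases charge tRNAs with amino acids and include many targets of ATF4. Of 21 genes in a list of these and the tRNA exporter Xpot, 11 rose and 0 fell by edgeR (13 and 0 by DESeq2, and the same at an unadjusted p under 0.05). The 11 were led by Aars1 (0.54) and Cars1 (0.53) and ran down to Qars1 (0.19) and Lars1 (0.16). Among 13 further genes of the eIF2 pathway 3 rose and 0 fell by edgeR and by DESeq2 (4 and 0 at an unadjusted p under 0.05). The 3 were Eif2ak2, the kinase PKR (0.88), Eif2b2 (0.28) and Eif2b4 (0.28), and the median of the list was 0.10. A count of 3 of 13 lies near the 16.5% of all genes that rose. With IL-4 alone 0 of either group passed by either tool, with 2 genes of the synthetase list and 0 eIF2 genes at an unadjusted p under 0.05.

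Heat shock genes, which answer unfolded protein outside the ER, gave a mixed picture. Most on this list act in the cytosol, and Hspd1 and Hspe1 act in mitochondria. Of 17 tested, 6 rose and 2 fell in the Wnt3a contrast, with a median of 0.12. The highest of those called were Hsph1 (0.48) and Hspd1 (0.35), and those that fell were Ahsa1 (-0.49) and Bag3 (-0.28). With IL-4 alone Hspa1b was the one called, at 1.65 ± 0.33 (adjusted p = 0.012) and a mean of 0.714 CPM in Untreated and 2.23 in IL4. No test compared the lists with one another.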

How the data were processed

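The samples were BMDM RNA from 3 mice under 4 conditions, sequenced as single reads. The deposited table holds unnormalized gene counts, which the authors obtained with HTSeq 0.11.1 after trimming by Trimmomatic 0.36 and alignment by STAR 2.6.0 (mm10). How strand was treated is not given in the sources used here. Symbols came from a mouse gene table (48058 of 48526 identifiers matched), gene positions and exon overlaps from GENCODE M21, and promoter sequence from RefSeq (GRCm38.p6, with a window for 34 of the 38 members and none for Atf6, Hyou1, Manf and Ppp1r15b). The table had 0 columns beyond those used.

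The columns that share reads were solved into difference and remainder. The 12421 genes that reached 10 counts in 3 or more of the 12 libraries and parts entered a single fit with edgeR 4.0.16 in R 4.3.3 (TMM normalization, quasi-likelihood test, two-sided, no term for the mouse, Benjamini-Hochberg adjustment over all genes, threshold 0.05). Errors of log2 fold changes are standard errors and those of CPM are SDs over 3 mice. CPM and folds of low genes carry counting error as well. The edgeR script was also run on data simulated from these libraries, with changes of 1 log2 unit, larger than those of most members. The test of whether the change with IL-4 depends on Wnt3a was chosen after seeing the data. Alternatives were DESeq2 1.42.0, its size factors, scaling by total counts, no filter beyond 1 count in the table, a filter of 1 CPM in 3 libraries, a fit of only the groups compared, the columns as deposited, a threshold of 0.01, a replicate block for the mouse, and leaving out single mice or libraries. The labels pair the samples, since each mouse gave 1 sample to each group. In 18 pairs of samples from 1 mouse, the correlation across genes of their deviations from the group mean ran from -0.42 to 0.45 and was over 0.1 in 6. P-values measure the spread between these 3 mice.

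The members and lists were chosen with earlier results of these data known. All 38 members are accounted for. For each comparison the text names the 6 highest called members, or all if fewer, and each member called lower. It also gives the sensors Ern1, Eif2ak3 and Atf6, and Xbp1, Atf4, Ddit3 and Hspa5. From each other list the 2 highest and 2 lowest called genes of the Wnt3a contrast and of IL4 against Untreated are named, except a gene of ER folding and degradation that is not reported here. Lists are described by counts and medians, with no set test.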

Additional observations from a re-analysis of the deposited data

Results flagged for a closer look

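A test of whether the log2 fold change for IL-4 differed with and without Wnt3a passed for 10 members when the difference is taken as Wnt3a+IL4, by edgeR over 12421 genes. The values, as the IL-4 effect with Wnt3a minus that without, were -0.98 for Psat1, -0.94 for Sdf2l1, -0.93 for Pdia6, -0.83 for Pdia4, -0.72 for Calr, -0.63 for Creld2, -0.58 for Hspa5, -0.58 for Manf, -0.54 for Pdia3 and -0.42 for Edem1 (adjusted p from 2.4e-04 for Sdf2l1 to 0.028 for Edem1). Of these genes 9 rose with IL-4 alone, and all 10 had a higher mean in the remainder than in the difference. The test sums these same 2 changes, so they are no further evidence. With the remainder taken as Wnt3a+IL4, 0 members passed by edgeR, with 8 at an unadjusted p under 0.05, and DESeq2 called 2. Without mouse 3, 3 of the 10 passed (Pdia4, Pdia6 and Sdf2l1), which also held in every other leave-out. Under the assignment with the 10 calls, 7 of 8 IL-4 response genes were also lower in this test (median -4.60), against 0 of 8 by edgeR under the other (median -0.20, with 3 at an unadjusted p under 0.05 and 1 by DESeq2). Their summed level was 66.6 CPM in the difference and 68.1 in Untreated, and 257 in the remainder and 301.6 in IL4. The labels do not say which assignment holds, and none was made from these values.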

How the results depend on the processing

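No called log2 fold change of a member turned its sign under any alternative. The 27 calls of the Wnt3a contrast stayed within 1.5 times under every setting (22 to 28 with a mouse or library left out), and 21 of them passed in every setting at the threshold of 0.05. With the difference or the remainder against Untreated, the counts (27 each) ran from 15 to 27 and from 17 to 28 with a mouse or library left out, lowest without mouse 3, and 15 and 17 calls held throughout. The 10 calls of IL4 against Untreated fell to 6 at a threshold of 0.01, became 14 with the columns as deposited, and ran from 0 (without mouse 3) to 11 with a mouse or library left out. Leaving out single libraries gave 5 without IL4 mouse 1 and 6 without IL4 mouse 2 or Untreated mouse 3. The 3 calls of remainder against difference became 6 with all genes of at least 1 count, 1 with only the groups compared, 0 with the columns as deposited, 0 at a threshold of 0.01 and 1 with the mouse as replicate block, and ran from 0 to 5 with a mouse or library left out. It was 0 without mouse 3, without the difference of mouse 2 or 3 and without the remainder of mouse 1 or 3, and 1 without mouse 1 or its difference. The columns as deposited share reads, which brings their values together. With the remainder taken as Wnt3a+IL4, the 0 calls for a changed IL-4 effect became 2 by DESeq2, 2 with all genes of at least 1 count and 4 with the columns as deposited, and ran from 0 to 1 with a mouse or library left out, and with the difference so taken the 10 calls ran from 3 (without mouse 3) to 14. Apart from the settings' own construction, the cause of these changes was not tested. The fit of only the groups compared was not run for contrasts that use all groups.

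With the mouse as replicate block, pairing the samples, the calls lost were Creld2 (adjusted p = 0.083) and Mthfd2 (0.061) in IL4 against Untreated, Sesn2 (0.082) and Trib3 (0.057) in the difference, and Sdf2l1 (0.053) and Pdia6 (0.059) between the parts. The block took no other call of a member, and left 8, 25, 27, 1 and 27 of the calls in IL4, difference, remainder, remainder against difference and the Wnt3a contrast.

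Scaling by total counts moved the median of all genes to -0.10 in the difference, -0.13 in the remainder and -0.09 in the Wnt3a contrast. It changed the split of all calls from 1462 higher and 1422 lower to 1131 and 2238 in the difference, from 1687 and 1450 to 1293 and 2342 in the remainder, and from 2046 and 2004 to 1633 and 2866 in the Wnt3a contrast. Under it the members that rose and fell numbered 19 and 4, 21 and 3, and 23 and 5. Counts limit Chac1, Phgdh, Trib3, Ddit4, Vldlr and Psat1 (4.51 to 9.33 CPM) most, which lie below 10 CPM.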
